A study of Capra hircus with 2 samples.

Results

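The hairpin of miR-151 yields 2 of the 346 conserved miRNAs listed by the study, miR-151 from its 3p arm and miR-151* from its 5p arm, and their reads in the dairy goat mammary gland are described here. The members were chosen by name, and tags were assigned to them by the listed mature sequences. The mammary glands came from Xinong Saanen dairy goats aged 2.5 years, and RNA of 3 goats was pooled at each stage. One small RNA library was made for the dry period and one for peak lactation, so each stage had 1 library and no replicates. According to the methods the dry period was sampled 320 days and peak lactation 75 days after lambing, whereas the sample labels attach these days to the opposite stages, and the stages used here follow the sample titles. A tag is one distinct clean read sequence with its read count, and levels are RPM, the reads of a miRNA per 1000000 clean reads.

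A miRNA hairpin is cut by Dicer into a short duplex of its 5p and 3p arms. One strand is usually loaded into an Argonaute protein and guides it to target mRNAs, mainly through its seed (bases 2 to 8 from the 5′ end), while the other strand, marked with an asterisk in the older nomenclature, is mostly lost. The hairpin of miR-151 is known as one from which both strands accumulate. In the RefSeq gene table of the goat assembly ARS1.2, MIR151 lies within the span of PTK2, the gene of focal adhesion kinase, a kinase of cell adhesion and migration. The primary transcript is also a known substrate of ADAR, an enzyme that turns adenosine into inosine, which is read as G in sequencing.

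The listed mature sequence of miR-151* is shown first, because its counts below depend on where it starts and ends. The seed is in capitals, and T of the deposited tags is written as U throughout.
miR-151* (5p arm): uCGAGGAGcucacagucuagu
The listed sequence of miR-151 has 22 nt and that of miR-151* 21 nt, and their seeds differ. Folded together with RNAcofold, the listed arms formed a duplex with 18 base pairs and a free energy of -28.6 kcal/mol. At the 3′ ends, 1 base of miR-151* and 3 bases of miR-151 were left unpaired. Base 3 of miR-151, an A within the seed, was paired with base 18 of miR-151*.

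Tags were counted by 2 rules. In anchored counting a tag had to be identical to the listed sequence for at least 18 nt from the 5′ end and could have any 3′ end. In exact counting the tag had to be identical to the listed sequence over its whole length. The depth was 14851375 clean reads (dry period) and 15712891 clean reads (peak lactation), so that 3 reads corresponded to 0.20 and 0.19 RPM. Intervals of log2 odds ratios are exact conditional 95% intervals, and all others are Wilson 95% intervals or derived from them. The intervals and all p values cover the counting of reads alone. They compare these 2 libraries and say nothing about the spread between goats or preparations.

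By anchored counting miR-151 had more reads than miR-151* in both libraries. The dry period counts were 3363 reads for miR-151 (226 RPM, interval 219 to 234) and 2163 reads for miR-151* (146 RPM, interval 140 to 152). Those at peak lactation were 2356 reads (150 RPM, interval 144 to 156) and 1931 reads (123 RPM, interval 118 to 128). Neither arm was among the abundant miRNAs of the gland, since miR-151 held ranks 71 and 61 and miR-151* ranks 79 and 62 of the 346 listed miRNAs.

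The ratio of miR-151* to miR-151 was 0.643 (interval 0.609 to 0.679) in the dry period library, which corresponds to 39.1% of the reads of the hairpin. At peak lactation it was 0.820 (interval 0.772 to 0.870), or 45.0%. In both libraries the split differed from an equal one by an exact binomial test of the reads (p = 5.6e-59 and p = 9.1e-11). The arm listed as the star strand thus held well over 1 read in 3.

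The order of the arms was the opposite under exact counting. During the dry period, tags identical to the listed sequence held 748 reads of miR-151 and 995 reads of miR-151*, a ratio of 1.33 (interval 1.21 to 1.46, exact binomial p = 3.6e-09). At peak lactation they held 493 and 971 reads, a ratio of 1.97 (interval 1.77 to 2.19, exact binomial p = 2.7e-36). Which arm had more reads was therefore decided by the counting rule in both libraries. With only the most abundant tag of each arm, the ratios were 1.05 (995 against 947 reads, exact binomial p = 0.29) and 1.41 (971 against 691 reads).

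**Figure D1:**
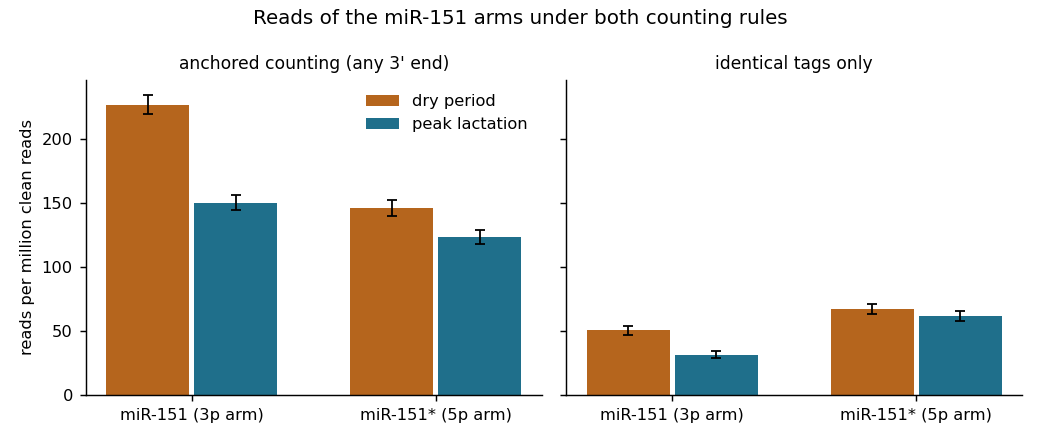
Level in RPM of miR-151 and miR-151* in the dry period (brown) and peak lactation (blue) libraries, by anchored counting on the left and with identical tags on the right. Bars show 1 library each and error bars the Wilson 95% interval of the read count. miR-151 is the higher arm on the left (226 and 150 RPM) and the lower arm on the right (50.4 and 31.4 RPM).

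Few reads of miR-151 ended where its listed sequence ends. Identical tags made up 22.2% (interval 20.9 to 23.7%) of all anchored miR-151 reads from the dry period and 20.9% (interval 19.3 to 22.6%) at peak lactation. For miR-151* they made up 46.0% (interval 43.9 to 48.1%) and 50.3% (interval 48.1 to 52.5%). Across the 120 listed miRNAs with at least 1000 anchored reads over both libraries, the median was 44.2% with quartiles of 35.8% and 56.3%. miR-151, with 21.7% over both libraries, had one of the low shares, since 8 miRNAs had a lower and 111 a higher one. miR-151* (48.0%) lay near the middle, with 72 miRNAs lower and 47 higher.

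The most abundant tag of miR-151 was 1 nt longer than the listed sequence, and the next tags were spread over several ends. The 23-nt tag with 1 added A held 947 dry period reads (28.2%) and 691 reads (29.3%) at peak lactation. The shortened tags of 21 nt held 352 and 252 reads (10.5% and 10.7%), and those of 20 nt held 270 and 189 reads (8.03% and 8.02%). The 24-nt tag with 2 added A held 190 and 148 reads, that ending in A and G held 149 and 87 reads, and that ending in U, A and U after base 21 held 86 and 80 reads. The shares of the leading tags were thus almost the same in both libraries. No difference between the libraries in the share of the 23-nt tag was detectable (log2 odds ratio 0.08, interval -0.09 to 0.25, Fisher's exact p = 0.34).

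The reads of miR-151* were concentrated on 2 ends, shown with bases beyond the match to the listed sequence in capitals.
miR-151*, 21 nt as listed: ucgaggagcucacagucuagu
miR-151*, 22 nt: ucgaggagcucacagucuaguA
miR-151*, 20 nt: ucgaggagcucacagucuag
miR-151*, 23 nt: ucgaggagcucacagucuaguAA
The listed 21-nt tag held 995 dry period reads (46.0%) and 971 reads (50.3%) at peak lactation. The 22-nt tag with 1 added A held 842 reads (38.9%) and 691 reads (35.8%). Together these 2 tags held most reads of the arm, and the 20-nt tag (100 and 67 reads) and the 23-nt tag with 2 A (74 and 81 reads) were far below them. The share of the listed tag was higher at peak lactation (log2 odds ratio 0.25, interval 0.07 to 0.43, Fisher's exact p = 0.0064).

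Tags of miR-151 were also longer on average, at 22.4 nt in both libraries, than those of miR-151*, at 21.5 nt in both. For miR-151, 91 tags occurred during the dry period and 72 at peak lactation, and the 49 tags found in both held 98.2% and 98.7% of its reads. For miR-151* the numbers were 42 and 34 tags, and the 23 shared tags held 98.9% and 99.1% of the reads. Nearly all reads of both arms therefore lay on tags found in both libraries. Of the distinct tags, only 49 of 114 for miR-151 and 23 of 53 for miR-151* were shared.

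**Figure D2:**
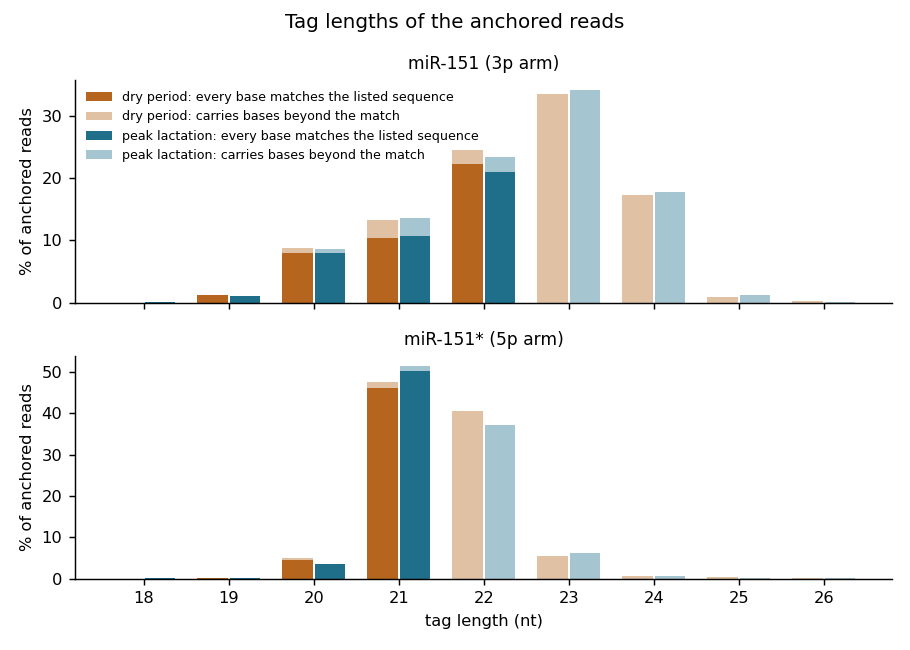
Share of the anchored reads of miR-151 (top) and miR-151* (bottom) by tag length from 18 to 26 nt, in the dry period (brown) and peak lactation (blue) libraries. Dark bars are tags that match the listed sequence over their whole length, and light bars are tags with bases beyond the match. miR-151 is spread over 20 to 24 nt with its highest bar at 23 nt (33.5% and 34.1%), whereas miR-151* has its reads at 21 nt (47.5% and 51.3%) and 22 nt (40.6% and 37.1%).

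Sorted by type of end, 43.9% of all anchored miR-151 reads from the dry period and 44.1% at peak lactation continued beyond the complete listed sequence. Shortened tags made up 19.7% and 19.8%, and tags that left the listed sequence before its end made up 14.1% and 15.2%. For no type of end of miR-151 was a difference between the libraries detectable, with Fisher's exact p from 0.24 to 0.97. Of miR-151*, 46.6% and 44.3% of the reads were longer than listed, but only 4.81% and 3.83% were shortened and 2.59% and 1.55% left the sequence before its end. The arms were thus alike in the share of longer tags and apart in the other types.

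The first base beyond the listed end was mostly A in both arms. For miR-151 it was A in 1362 of 1478 longer dry period reads (92.2%) and in 979 of 1040 at peak lactation (94.1%). For miR-151* it was A in 977 of 1008 (96.9%) and in 822 of 856 (96.0%). Among 110 listed miRNAs with at least 100 longer reads, the median share of A was 46.0%, with quartiles of 18% and 72.1%, and 11 miRNAs exceeded miR-151 and 6 exceeded miR-151*. Where tags of miR-151 left the listed sequence early, U came first in 259 and A in 165 of 473 dry period reads, and in 229 and 98 of 357 at peak lactation. A tag that left at a listed A could not carry A there by definition, and one that left at a listed G could not carry G. These counts therefore cannot rank U against A or G. C came first in 36 of these dry period reads and in 28 at peak lactation, below U in both libraries. A goat precursor was not analysed here, so a base encoded by the hairpin and a base added after cleavage cannot be told apart.

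The 5′ ends were far more uniform than the 3′ ends. Among reads that started from 2 bases before to 2 bases after the listed first base, 98.0% of miR-151 reads from the dry period and 98.5% at peak lactation began exactly there. For miR-151* the shares were 99.7% and 99.0%. The commonest other start of miR-151 lay 1 base earlier, with 34 reads (0.990%) and 20 reads (0.836%), and the extra base was A in 34 and 19 of them. For miR-151*, 4 and 15 reads began 1 base earlier, and C was the extra base in 2 and 13 of them. The seed of the listed sequence therefore belonged to nearly all reads of either arm.

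One base within the seed of miR-151 differed from the listed sequence more often than any other of its first 18 bases. The change A3G (positions counted from 1 at the 5′ end of the listed sequence, listed base first) was found in 40 reads of the dry period library, or 1.18% of the reads with or without it (interval 0.864 to 1.60%), and in 20 reads at peak lactation, or 0.842% (interval 0.546 to 1.30%). Of the tags with this change, the 23-nt tag held 10 and 6 reads, the 20-nt tag 7 and 3, and the 22-nt tag 6 and 3. Outside these totals, a tag with the same change and an extra A at its 5′ end held 3 and 1 reads. The change was thus carried by several 3′ ends of miR-151 and by both of its commoner starts. A difference between the libraries was not detectable (log2 odds ratio -0.49, interval -1.34 to 0.33, Fisher's exact p = 0.24).

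The next most frequent of the other 53 possible changes was C1G, with 8 and 3 reads (0.192% over both libraries, against 1.04% for A3G), and their median was 0.035%. At base 3 itself, A3C had 1 read in each library and A3U had 2 and 3. The other 3 A of this stretch were read as G in 0.017 to 0.087% of reads. In the 40 other miRNAs with at least 1000 reads and an A at position 3, A was read as G at this position in a median of 0.244% (quartiles 0.193% and 0.277%), which was above the medians at all other positions. The share in miR-151 was 1.04% over both libraries, and the intervals from either library lay above the upper quartile. A higher share was found in 2 of the 40, miR-199c (23.4%) and let-7c (2.13%), and the 9243 reads with this change that were counted for let-7c fitted let-7a equally well. These miRNAs were named after their values were seen. Genomic DNA was not analysed here. Whether A3G came from an edited base, an allele of the pooled goats or a misread base was not tested.

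**Figure D3:**
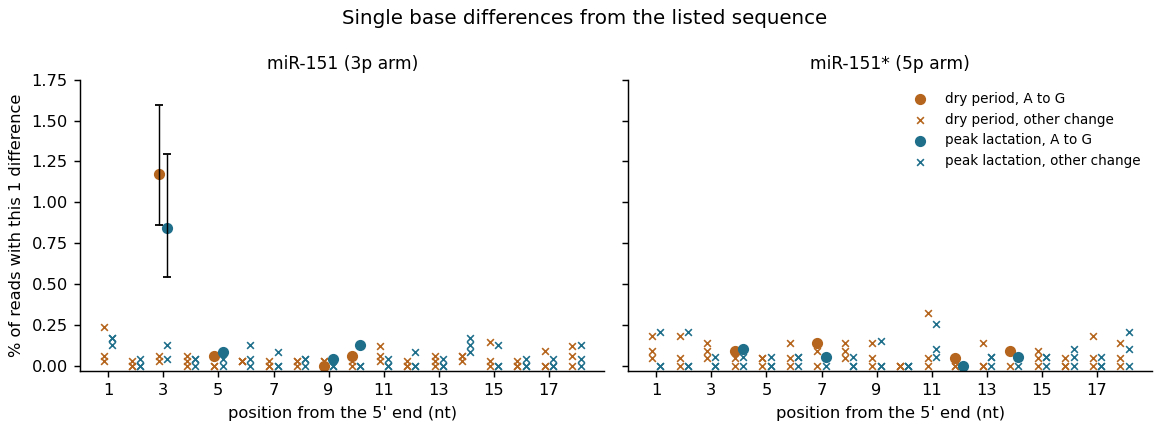
Share of reads with exactly 1 base difference from the listed sequence, by position from the 5′ end, for miR-151 (left) and miR-151* (right) in the dry period (brown) and peak lactation (blue) libraries. Circles are changes from A to G, crosses all other changes, and the error bars on A3G are Wilson 95% intervals. A3G of miR-151 stands at 1.18% and 0.842%, while the highest other point of either arm is C11U of miR-151* at 0.323%.

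With all clean reads as denominator, both arms changed less between the stages than the median miRNA. For miR-151 the level of 226 RPM during the dry period and 150 RPM at peak lactation gave a log2 fold change (peak lactation over dry period) of -0.59 (interval -0.67 to -0.52), with an exact Audic-Claverie p of 5.0e-54. For miR-151* the levels of 146 and 123 RPM gave -0.25 (interval -0.33 to -0.16, exact p = 5.6e-08). A call required a change of more than 1 on the log2 scale in either direction together with p below 0.01, and neither arm met it, whereas 68.9% of the 257 tested miRNAs did (67.7% as lower and 1.17% as higher). With identical tags the values were -0.68 (interval -0.85 to -0.52) and -0.12 (interval -0.24 to 0.01), again not called, against 69.8% of 225 tested miRNAs.

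The median log2 fold change of the tested miRNAs was -1.44, and 247 of the 257 values were below 0. The value of miR-151 lay 0.84 above this median and that of miR-151* 1.19 above it. Only 37 miRNAs had a higher value than miR-151 and 18 a higher value than miR-151*. The conserved miRNAs took 61.1% of clean reads during the dry period and 14.4% at peak lactation, and why these shares differed was not tested. With the summed conserved miRNA reads as denominator, the log2 fold changes were 1.49 for miR-151 and 1.84 for miR-151*, both called as higher. The median of the tested miRNAs was then 0.64, so that both arms lay further from 0 than the median. The direction of change of either arm and whether it was smaller or larger than the median thus depended on the denominator, which shifts all log2 fold changes by one constant and leaves the distances from the median as they are. In pooled tissue, fewer cells of a type and less RNA per cell cannot be told apart.

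**Figure D4:**
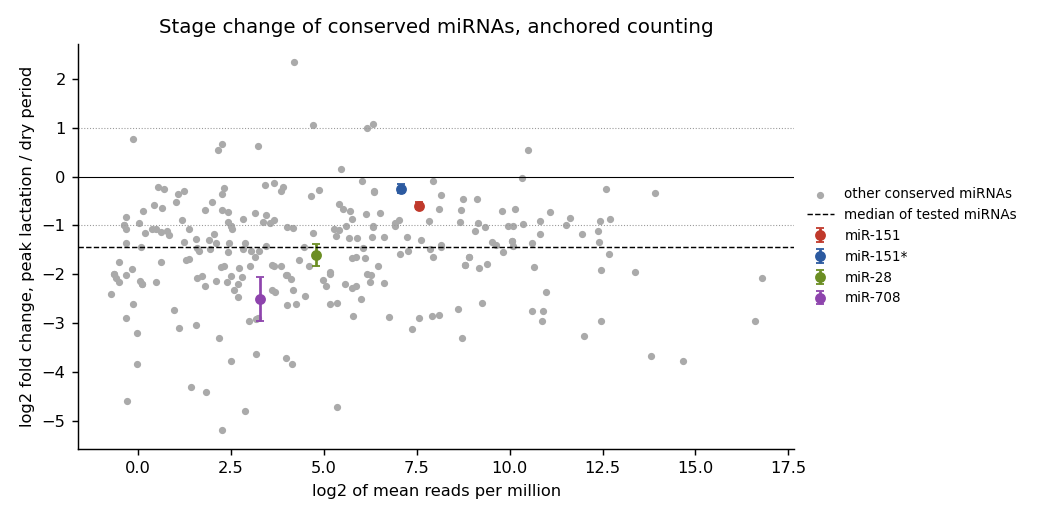
Log2 fold change (peak lactation over dry period) of 257 conserved miRNAs against the log2 of their mean level in RPM, by anchored counting. Coloured points with 95% intervals are miR-151, miR-151*, miR-28 and miR-708, the dashed line is the median of all points and the dotted lines are at 1 and -1. miR-151 (-0.59) and miR-151* (-0.25) lie above the median of -1.44, whereas miR-28 (-1.60) and miR-708 (-2.50) lie below it, and with the conserved miRNA reads as denominator both arms and miR-28 lie above 0.

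By level in both libraries, the listed miRNAs nearest to miR-151 were miR-379 (296 and 157 RPM), miR-744 (276 and 112 RPM) and miR-99b (340 and 122 RPM), at distances of 0.39, 0.51 and 0.66 in the plane of the log2 RPM values. Nearest to miR-151* were miR-148b (169 and 90.4 RPM), miR-186 (159 and 82.5 RPM) and miR-130a (161 and 80.3 RPM), at distances of 0.49, 0.59 and 0.63. These distances rest on 2 libraries. All of these neighbours had a lower log2 fold change than the arm they were nearest to, from -1.48 for miR-99b to -0.90 for miR-148b.

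The ratio of the arms does not depend on the denominator, because both arms were counted in the same library. It rose from 0.643 to 0.820 at peak lactation, a log2 odds ratio of 0.35 (interval 0.23 to 0.47, Fisher's exact p = 4.6e-09). With identical tags it rose from 1.33 to 1.97 (log2 odds ratio 0.57, interval 0.35 to 0.78, Fisher's exact p = 8.7e-08). Thus the counting rule decided which arm had more reads but not the direction of the difference between the libraries. When every tag was counted once, the numbers of tags (42 and 91 in the dry period library, 34 and 72 at peak lactation) gave a log2 odds ratio of 0.033 (Fisher's exact p = 1).

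The study listed both arms for 29 other hairpins, of which 15 had at least 100 reads for each arm over both libraries. With miR-151 these were 16 hairpins, and the arm ratio differed between the libraries at p below 0.01 in 9 of them, or 56.2%. A difference of this kind was therefore common. The absolute log2 odds ratio was larger than that of miR-151 in 9 of the other 15 hairpins, whose median was 0.53.

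The ratio of the star or 5p arm to the other arm was higher at peak lactation in miR-30b (log2 odds ratio 1.54), miR-199a (0.71) and miR-126 (0.53). It was lower in miR-142 (-1.28), miR-23b (-1.21), miR-193a (-1.19), miR-17 (-1.09) and miR-345 (-0.64), and the value of miR-99a (-0.49, Fisher's exact p = 0.013) did not pass the test. Arms within a factor of 2 of each other in both libraries were found in 3 hairpins, miR-151, miR-17 and miR-362. Among the 16 hairpins, the order of the arms differed between anchored and exact counting in both libraries for miR-151 and miR-362, at peak lactation for miR-17 and in the dry period for miR-193a, with far fewer reads behind miR-362 (154 and 58 of its 3p arm and 156 and 64 of its 5p arm).

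**Figure D5:**
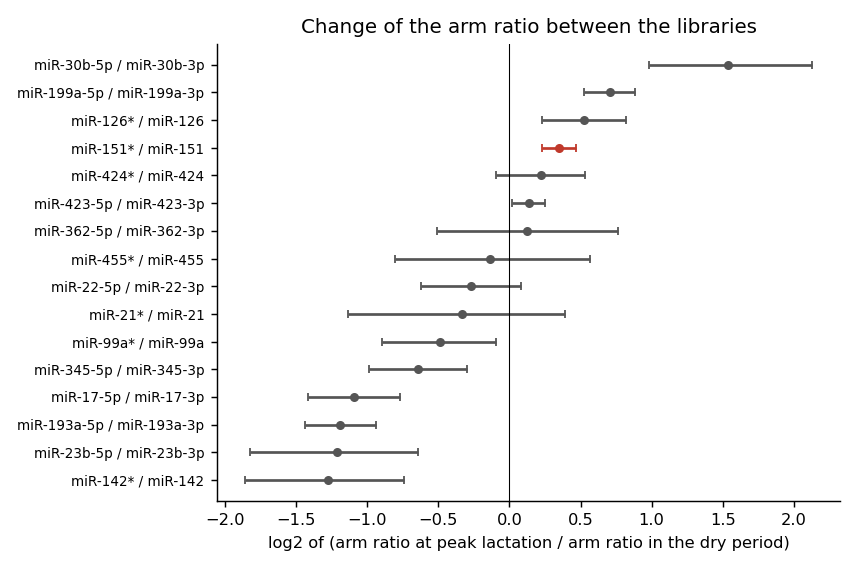
Change of the arm ratio between the libraries for the 16 hairpins with at least 100 reads for each arm, as the log2 of the ratio at peak lactation over that of the dry period with 95% intervals from the counts of reads. The first named arm is the numerator, and miR-151 is in red. The value for miR-151 is 0.35 (interval 0.23 to 0.47), and the values of the others run from -1.28 to 1.54.

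miR-151* is related in sequence to miR-28 and miR-708, whose shared seed (AGGAGCU) is found within miR-151* at bases 4 to 10. The stretch shared with miR-151* is in capitals for each relative, and that of miR-28 is also marked in miR-151*, to show how far the sequences coincide.
miR-151*: ucgAGGAGCUCACAGUCUAgu
miR-28: aAGGAGCUCACAGUCUAuuga
miR-708: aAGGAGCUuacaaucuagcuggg
The shared stretch of miR-28 has 16 nt, so no tag anchored for 18 nt could be counted for both, and that of miR-708 has 7 nt. A read of miR-151* would have to begin 2 bases after the listed start to carry this seed, and 2 dry period reads and 1 read at peak lactation did. miR-28 fell from 614 to 214 reads (41.3 to 13.6 RPM, log2 fold change -1.60, interval -1.83 to -1.38), and miR-708 fell from 246 to 46 reads (16.6 to 2.93 RPM, log2 fold change -2.50, interval -2.95 to -2.05). Both were called, with exact Audic-Claverie p of 9.6e-51 and 6.1e-37, as were 68.9% of the 257 tested miRNAs. Their intervals did not overlap that of miR-151*, but 238 of the 257 tested miRNAs had a lower value than miR-151*. A lower value was thus not particular to the relatives. With the conserved miRNA reads as denominator, the value of miR-28 was 0.48 and that of miR-708 -0.42. The RPM of miR-151* was thus above those of both relatives in each library.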

How the data were processed

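For each library, the authors deposited the clean tags with their length and count of reads, after base calling with CASAVA (named in the submitters' processing notes) and removal of low-quality reads, adaptor contaminants, reads lacking an insert, poly(A) reads and reads under 18 nt. The counts were neither normalized nor aligned. The mature sequences were read from the study's list of conserved miRNAs, and its counts were not used. Each tag went to the miRNA it matched furthest without a difference from base 1 on, over 18 nt or more, and ties were counted for each. Counts were divided by the clean reads and multiplied by 1000000, a count of 0 was set to 0.01 RPM, and a miRNA had to reach 1 RPM in at least 1 library. The Audic-Claverie probability of the study's methods was computed two-sided over all listed miRNAs, on read counts with the clean read totals as library sizes (the methods word its inputs as normalized levels), because with 1 library per stage a test on replicates could not be fitted. Arm and end shares were compared with two-sided exact binomial and Fisher's exact tests of reads without adjustment. Base differences were counted in tags that fitted no listed miRNA and had exactly 1 difference in the first 18 nt. RPM values set different sequences side by side without calibration of how well each is ligated and amplified.

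Named miRNAs were the arms, miR-28 and miR-708, the hairpins with both arms listed that had a larger change of the ratio or another order of the arms under exact counting, and the 3 nearest in level to each arm. Outside this rule, miR-199c, miR-199a-3p, let-7c and let-7a were named after the shares of A read as G were seen. Members and lists were chosen with earlier results of these data known. Counting and test were tested on simulated data. Python 3.11.15, numpy 2.4.6, scipy 1.17.1, matplotlib 3.10.9 and RNAcofold 2.7.2 were used, and R 4.3.3 with edgeR 4.0.16 and DESeq2 1.42.0 gave alternative size factors. Alternatives covered the counting rule, denominator, minimum reads, filter and test. The sequence of the 3p arm is not reported here. The quantitative PCR and the mapping to the bovine genome were not used here.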

Additional observations from a re-analysis of the deposited data

How the results depend on the processing

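The stage change of both arms reversed with the denominator, which shifts all log2 fold changes by one constant. Why the share of conserved miRNA reads differed between the libraries was not tested. For miR-151 the log2 fold change was 1.49 with the reads of conserved miRNAs, 0.70 with TMM factors, 0.80 with DESeq2 size factors and 0.24 with the reads of 21 to 23 nt, and for miR-151* it was 1.84, 1.05, 1.15 and 0.59. The number of miRNAs called was then 100 (15 lower and 85 higher), 69 (48 and 21), 70 (42 and 28) and 91 (82 and 9), against 177 (174 and 3) with all clean reads. Under 9 other settings the values stayed between -0.68 and -0.59 for miR-151 and between -0.26 and -0.12 for miR-151*. Among these settings, another test and an adjustment of p cannot change the log2 fold change. Adding 1 read to each count hardly can.

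The ratio of miR-151* to miR-151 was above 1 with identical tags (dry period 1.33, peak lactation 1.97). With the most abundant tag of each arm it was 1.05 and 1.41. A difference of 1.05 from 1 was not detectable (exact binomial p = 0.29). Under the 7 others the ratio stayed below 1, from 0.46 to 0.65 and from 0.47 to 0.83. The difference of the ratio between the libraries kept its direction and side of the threshold under 8 settings (0.33 to 0.57) and was 0.033 when each tag was counted once, where only tags were compared. The share of identical tags stayed within its interval under all 4 settings. No paired analysis was possible because each stage had 1 library, and none could be left out. Reads were counted without molecular identifiers, so intervals cover counting error only.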
